A study of Mus musculus with 10 samples.

Results

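The 10 genes described here encode glutathione transferases of mouse that lie outside the alpha and mu classes. Gstp1 belongs to the pi class, Gstt1, Gstt2 and Gstt3 to the theta class, and Gsto1 to the omega class. Gstk1 belongs to the kappa class and Gstz1 to the zeta class, and Mgst1, Mgst2 and Mgst3 are membrane enzymes. They were chosen by symbol, and all 10 were found among the 21222 genes of the count table. Other genes outside the alpha and mu classes, such as Gstp2, Gsto2 and Hpgds, are given further on. The RNA of 10 left ventricle samples came from mice that shared strain (C57BL/6J), sex (male) and age (6 months), and n counts samples. The high line (TGH, genotype CaNrf2-High, n = 3) and the low line (TGL, CaNrf2-Low, n = 3) carried a constitutively active Nrf2, and the non-transgenic mice (NTG, n = 4) did not. TG stands for both lines together (n = 6). The sources used here do not give the promoter that drives the transgene, the number of founders behind each line or the cells that express it.

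Glutathione transferases couple glutathione to reactive and foreign compounds, and several of them also reduce lipid peroxides or act as isomerases. Nrf2 is a transcription factor that binds antioxidant response elements and is known for raising alpha and mu class transferases and the enzymes that make glutathione. The heart oxidises large amounts of fatty acid in its mitochondria, so enzymes that handle lipid peroxides and their products, among them the mitochondrial kappa enzyme and the microsomal enzymes, have been of interest there.

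The promoters are shown here because Nrf2 acts through short DNA elements. RefSeq promoter windows (GRCm38.p6, 250 bases before to 50 bases after an annotated start) were found for 9 of the 10 genes, in 12 windows, and Gstt2 had no entry. Each window was searched on both strands for motifs of Nrf2 and its partners. These were TGACNNNGC, the core of the antioxidant response element, and TGANTCAGC, a related element of a kind that AP-1 and NF-E2 factors also bind. A sequence can match both, and 175 windows held both. The windows below belong to the genes whose transcripts differed between groups (Gstk1, Gstt1 and Mgst1) and to Gstp1, each written 5′ to 3′ on the strand of its gene, with a motif match in capitals. They are the windows at chr6:42245685-42245984 (plus strand) for Gstk1, chr10:75797682-75797981 (minus strand) for Gstt1, chr6:138140277-138140576 (plus strand, the first of the Mgst1 windows by position) for Mgst1 and chr19:4037863-4038162 (minus strand) for Gstp1.
Gstk1: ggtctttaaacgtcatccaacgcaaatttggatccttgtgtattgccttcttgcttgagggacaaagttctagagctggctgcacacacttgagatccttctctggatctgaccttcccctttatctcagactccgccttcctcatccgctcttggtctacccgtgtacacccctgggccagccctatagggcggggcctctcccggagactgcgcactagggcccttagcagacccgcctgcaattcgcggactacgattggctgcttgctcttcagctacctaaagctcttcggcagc
Gstt1: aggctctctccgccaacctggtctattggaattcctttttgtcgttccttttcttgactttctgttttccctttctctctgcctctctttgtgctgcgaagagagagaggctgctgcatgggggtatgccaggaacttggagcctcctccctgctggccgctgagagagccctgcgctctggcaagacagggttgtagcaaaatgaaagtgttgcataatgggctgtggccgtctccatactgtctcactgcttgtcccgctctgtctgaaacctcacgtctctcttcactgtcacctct
Mgst1: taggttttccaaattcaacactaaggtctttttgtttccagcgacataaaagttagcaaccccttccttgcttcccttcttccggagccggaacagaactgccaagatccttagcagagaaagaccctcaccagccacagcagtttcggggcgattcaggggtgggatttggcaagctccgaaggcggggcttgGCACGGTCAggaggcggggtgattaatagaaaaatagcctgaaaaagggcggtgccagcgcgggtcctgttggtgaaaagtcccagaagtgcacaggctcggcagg
Gstp1: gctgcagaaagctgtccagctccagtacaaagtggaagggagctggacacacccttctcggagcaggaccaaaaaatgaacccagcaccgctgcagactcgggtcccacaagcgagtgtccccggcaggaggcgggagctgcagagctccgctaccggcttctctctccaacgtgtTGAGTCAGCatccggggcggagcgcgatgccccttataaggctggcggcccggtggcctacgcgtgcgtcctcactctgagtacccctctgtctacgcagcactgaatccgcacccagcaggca

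The core TGACNNNGC was present in 1 of the 9 genes, Mgst1, where it lay on the opposite strand and so reads GCACGGTCA above, beginning 56 bases before the start. Of all 32851 RefSeq windows, 12.4% held this core, and of the 27025 genes with a window 14.0% held it. The element TGANTCAGC was chosen after these windows were read, so its presence among them is a description only. It was present in 1 of the 9 genes, Gstp1, as TGAGTCAGC beginning 74 bases before the start. Of all windows 1.19% held it, and of all genes with a window 1.365%. The windows of Gstk1 and Gstt1 held neither string of letters. Among the transferases of the other classes the core TGACNNNGC was found in 1 of 3 alpha class genes with a window (Gsta3) and in 2 of 7 mu class genes (Gstm5 and Gstm7). It was also in 2 of 8 glutathione supply genes with a window, Gclm and Ggct. A match describes the letters of these windows and is not evidence of binding.

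The libraries held 7076319 to 10896535 counts. Levels are in CPM, counts divided by a library size that TMM had adjusted, and 3 counts, the limit that a count of 0 allows, equalled 0.259 to 0.436 CPM, which covers counting error only. Pairs of libraries of a group correlated with r of 0.972 to 0.990 across genes, and their differences were 3.002 to 18.8 times counting noise by chi-square over its degrees of freedom, so none was counted as a duplicate. By chi-square the pairs with NTG 2 differed most (17.8 to 18.8), and pairs with TGL 2 (11.5 to 11.9) or TGH 2 (11.01 to 11.8) came next. Nfe2l2, the gene of Nrf2, stood at 181 to 253 CPM in TGH, 128 to 182 CPM in TGL and 88.1 to 164 CPM in NTG. The sources used here do not say whether the transgene's own message is counted there, so the labels could not be checked by it. The labels number separate samples without naming animals, so p-values measure the spread between these samples.

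The marker genes of heart cells moved between the groups too. The 8 cardiomyocyte markers, all of them abundant, summed to 59685 to 64400 CPM in TGH, 70888 to 72960 CPM in TGL and 74363 to 76973 CPM in NTG, and in TGH against NTG 7 fell and 1 rose. The 8 fibroblast markers summed to 1650 to 1663 CPM in TGH, 1361 to 1708 CPM in TGL and 1015 to 1317 CPM in NTG, with 7 that rose and 0 that fell in TGH. Of 6 endothelial markers 3 fell in TGH (564 to 688 CPM in TGH, 635 to 860 CPM in TGL, 783 to 841 CPM in NTG), and of 6 macrophage markers 3 rose (234 to 270 CPM in TGH, 159 to 211 CPM in TGL, 158 to 228 CPM in NTG). Of 6 smooth muscle and pericyte markers 2 fell and 0 rose in TGH against NTG. Their sums were 1445 to 1903 CPM in TGH, 1405 to 1773 CPM in TGL and 1255 to 2106 CPM in NTG. Of 5 red cell markers and the 1 adipocyte marker tested, 0 passed in TGH against NTG. In bulk tissue, fewer cells of a type and less RNA per cell cannot be told apart, and the part of these shifts in the transferase values below was not tested. The atrial markers Nppa and Myl4 were higher in TGH and TGL than in NTG, while the defining atrial genes Myl7, Sln and Bmp10 were near 0, with 7, 3 and 4 counts over all 10 libraries. Of the liver markers, a tissue rich in many of these enzymes, 4 were in the table, and they summed to 0.138 to 1.495 CPM in every library.

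Of the 10 transferases, 9 had enough counts to be tested. The clearest differences were falls of Gstk1 in both lines and of Gstt1 in the high line, larger than the spread between libraries. Mgst1 was higher in the high line than in the low line at an adjusted p of 0.049, with overlapping groups and a call that ended without any of 7 of the 10 libraries. In TGH against NTG, 2 of the 9 fell (Gstk1 and Gstt1) and 0 rose at an adjusted p under 0.05, where 16.4% of all 14511 tested genes fell and 16.0% rose. In TGL against NTG, 1 fell (Gstk1) and 0 rose, against 2.14% and 4.15% of all tested genes. The median log2 fold change in TGH against NTG was -0.0012 for the 9 genes and -0.02 over all tested genes, and in TGL against NTG -0.05 for the 9 genes and -0.0052 over all tested genes. At an unadjusted p under 0.05, 1 was higher and 3 lower in TGH, and 0 were higher and 4 lower in TGL. Of all 14511 tested genes, 6269 had such a p in TGH and 3230 in TGL, in either direction. DESeq2 called the same numbers of the 9 as edgeR in each direction after adjustment. These counts describe the 9 genes, and the share that fell in TGH is near the share among all genes. Adjusted p-values of single genes come from the quasi-likelihood test of edgeR, adjusted by Benjamini-Hochberg over all tested genes. Both lines were compared with the same 4 NTG libraries, so the comparisons are not independent of each other.

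**Figure D1:**
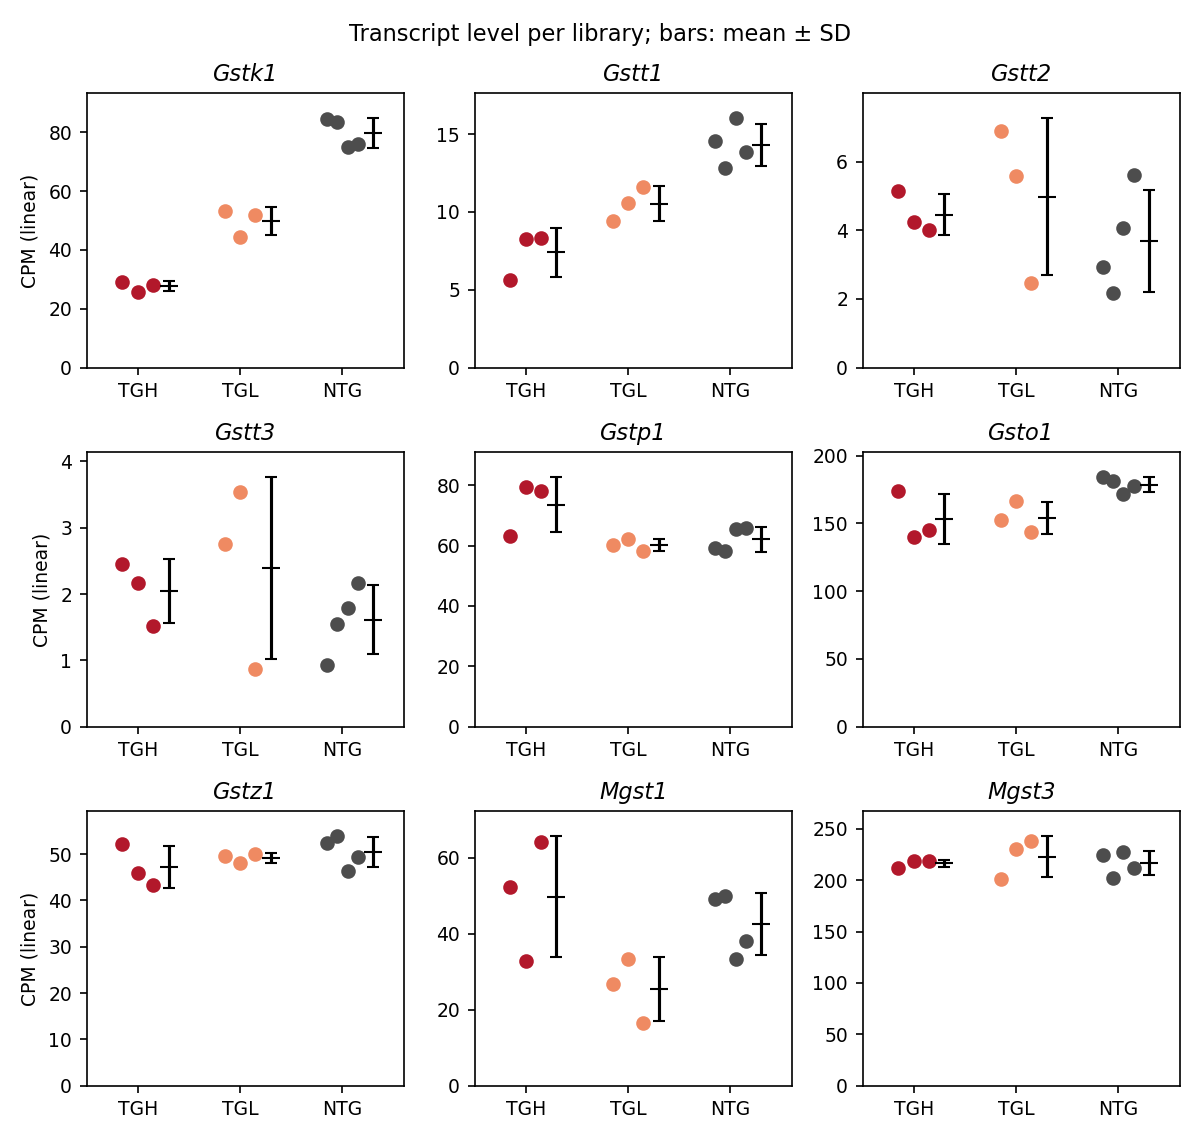
Level of the 9 tested transferases in CPM (linear axes from 0) in each library, with points for libraries and bars for the mean ± SD of TGH (n = 3), TGL (n = 3) and NTG (n = 4). The Gstk1 points form 3 separate groups at 25.8 to 29.2 CPM in TGH, 44.4 to 53.3 CPM in TGL and 74.9 to 84.4 CPM in NTG, and the TGH libraries of Mgst1 spread from 32.7 to 64.2 CPM.

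Gstk1 (GRCm38 chromosome 6, 42245935 to 42250447) encodes the kappa class enzyme, which resides in mitochondria and peroxisomes and resembles bacterial disulfide isomerases more than the other cytosolic transferases. It stood at 29.2, 25.8 and 28.2 CPM in TGH, 53.3, 44.4 and 51.8 CPM in TGL, against 84.4, 83.6, 74.9 and 75.9 CPM in NTG. Every TGH library lay below every TGL library, and every TGL library below every NTG library. In TGH against NTG the groups failed to overlap for 2 of the 9 genes, Gstk1 and Gstt1, against 38.9% of all tested genes, and in TGH against TGL for 3 (Gstk1, Gstt1 and Gstp1), against 28.4%. The means were 27.7 ± 1.74 CPM in TGH and 49.9 ± 4.74 CPM in TGL (SD, n = 3 each) and 79.7 ± 5.02 CPM in NTG (SD, n = 4). In TGH the transcript was 0.348-fold of NTG, a log2 fold change of -1.52 ± 0.09 (SE), with a 95% interval of -1.73 to -1.32 and an adjusted p of 3.48e-07. In TGL it was 0.626-fold of NTG (log2 -0.68 ± 0.09, interval -0.87 to -0.48, adjusted p = 0.000844). The lines themselves differed, with TGH 0.556-fold of TGL (log2 -0.85 ± 0.10, interval -1.06 to -0.63, adjusted p = 0.000305). These falls were larger than the spread between libraries of a group. None of the 50-base words of its transcripts was shared with another annotated gene.

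Gstt1 (chromosome 10, 75783813 to 75798584) encodes the theta class enzyme known for acting on small halogenated compounds. It stood at 5.61, 8.29 and 8.31 CPM in TGH, 9.39, 10.6 and 11.6 CPM in TGL, against 14.6, 12.8, 16.0 and 13.8 CPM in NTG. Its TGH libraries were also the lowest, its NTG libraries the highest, and no groups overlapped. These levels rested on 48 to 134 counts per library. The means were 7.40 ± 1.55 CPM in TGH and 10.5 ± 1.12 CPM in TGL (SD, n = 3 each), against 14.3 ± 1.33 CPM in NTG (SD, n = 4). In TGH against NTG the log2 fold change was -0.94 ± 0.15 (SE), or 0.522-fold, with a 95% interval of -1.27 to -0.60 and an adjusted p of 0.000768. In TGL against NTG it was -0.44 ± 0.15 (interval -0.77 to -0.11) and did not pass after adjustment (adjusted p = 0.115). In TGH against TGL it was -0.50 ± 0.17 with an adjusted p of 0.0891, so a difference between the lines was not shown for this gene.

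The other theta class genes lie beside Gstt1 on chromosome 10 and were lower per kilobase of transcript, as given further on. Gstt2 (75831114 to 75837424) stood at 5.14, 4.23 and 3.99 CPM in TGH, 6.90, 5.57 and 2.47 CPM in TGL, against 2.94, 2.17, 4.06 and 5.60 CPM in NTG. The groups overlapped, and TGL 2 was the lowest of its line. Gstt3 (75774115 to 75781414) stood at 2.46, 2.16 and 1.51 CPM in TGH, 2.76, 3.53 and 0.871 CPM in TGL, against 0.935, 1.55, 1.79 and 2.17 CPM in NTG, on 6 to 26 counts per library. It overlapped between groups likewise, again with TGL 2 low in its line, and it lies within the predicted gene Gm20441, with which it shared 12.2% of its 50-base words, so its value is uncertain. In TGH against NTG the log2 fold change was 0.27 ± 0.35 for Gstt2 (adjusted p = 0.585) and 0.33 ± 0.41 for Gstt3 (adjusted p = 0.568). The 95% interval ran from -0.49 to 1.03 for Gstt2 and from -0.56 to 1.21 for Gstt3, so a difference of the size seen for Gstt1, in the downward direction, lay outside both.

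Of all tested genes 16.4% fell in TGH against NTG. Within 50000 bases of Gstt1 the table holds 5 genes, of which 4 were tested, and 1 of these fell in TGH. That gene was Ddt, which encodes D-dopachrome tautomerase and lies 10399 bases away, with means of 17.0 CPM in TGH, 23.6 CPM in TGL and 30.6 CPM in NTG. Its log2 fold change was -0.85 ± 0.09 in TGH against NTG (adjusted p = 2.34e-05) and -0.38 in TGL against NTG (adjusted p = 0.0247). Cabin1, 19472 bases away, had -0.26 in TGH against NTG (adjusted p = 0.0724). Around Gstk1, 2 of 3 genes were tested. Clcn1, a chloride channel gene of muscle 36238 bases away, fell in TGH (1.33 CPM in TGH, 4.52 CPM in TGL, 6.53 CPM in NTG, log2 -2.31 ± 0.33, adjusted p = 0.00033). Casp2, which lies nearer at 14538 bases, had a log2 fold change of 0.06 (adjusted p = 0.767).

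Gstp1 (chromosome 19, 4035407 to 4037921) encodes the pi class enzyme, which conjugates many electrophiles and also binds the stress kinase JNK. It stood at 63.3, 79.4 and 78.2 CPM in TGH, 60.3, 62.1 and 58.2 CPM in TGL, against 59.2, 58.1, 65.4 and 65.9 CPM in NTG. The TGH libraries all lay above the TGL libraries, but TGH 0 lay among the NTG libraries. The log2 fold change of 0.25 ± 0.09 in TGH against NTG (95% interval 0.05 to 0.45) and of 0.29 ± 0.10 in TGH against TGL did not pass after adjustment, with an adjusted p of 0.059 and 0.0908. Without TGH 0 both passed (log2 0.34 and adjusted p = 0.0119 against NTG, 0.39 and 0.0217 against TGL). In the 9 of 10 fits that left out another library neither passed, with an adjusted p up to 0.221 against NTG and 0.281 against TGL. Gstp1 shared 33.7% of its 50-base words with its close copy Gstp2, so the division of reads between them is uncertain. Gstp2 had a fold of 1.098 in TGH against NTG (adjusted p = 0.372), and with both counted as 1 gene the log2 fold change was 0.20 in TGH against NTG (adjusted p = 0.112) and 0.13 in TGH against TGL (adjusted p = 0.474).

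Gsto1 (chromosome 19, 47854970 to 47864790) encodes the omega class enzyme, a thiol transferase that also reduces dehydroascorbate. It stood at 174, 140 and 145 CPM in TGH, 153, 167 and 143 CPM in TGL, against 184, 181, 171 and 178 CPM in NTG. All TGL libraries lay below all NTG libraries, whereas TGH 0 lay among the NTG libraries. Groups failed to overlap for 4 of the 9 genes in TGL against NTG (Gstk1, Gstt1, Gsto1 and Mgst1, each lower in TGL), against 20.2% of all tested genes. The log2 fold change of Gsto1 was -0.22 ± 0.09 in TGH against NTG (adjusted p = 0.0661) and -0.21 ± 0.09 in TGL against NTG (adjusted p = 0.176). Without TGH 0 the first of these was -0.33 and passed (adjusted p = 0.0127). In the 9 of 10 fits that left out another library it did not pass (adjusted p up to 0.251). Gsto1 lies within Cfap43 on the opposite strand, and the sources used here do not say whether counting used strand.

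Gstz1 (chromosome 12, 87147165 to 87164723) encodes maleylacetoacetate isomerase, the zeta class enzyme that acts next to last in the breakdown of tyrosine. Its levels were 52.1, 46.0 and 43.4 CPM in TGH, 49.6, 48.0 and 49.95 CPM in TGL, against 52.4, 53.8, 46.4 and 49.4 CPM in NTG, with overlapping groups. The log2 fold change was -0.10 ± 0.09 in TGH against NTG (95% interval -0.28 to 0.09, adjusted p = 0.401). It was -0.04 in TGL against NTG (adjusted p = 0.829). Gstz1 overlaps Pomt2 by 804 bases on the opposite strand and 9.39% of its 50-base words occur elsewhere in the annotation. The gene of the step after it, Fah (fumarylacetoacetate hydrolase), had 2.58 ± 0.585 CPM in TGH and 16.6 ± 5.63 CPM in TGL (SD, n = 3 each), against 23.0 ± 5.07 CPM in NTG (SD, n = 4). Fah was 0.111-fold of NTG in TGH (adjusted p = 7.91e-06) and 0.153-fold of TGL in TGH (adjusted p = 0.00025), and in TGL it was 0.723-fold of NTG (adjusted p = 0.258). Of the 5 genes listed with tyrosine breakdown, only Fah and Fahd1 were tested. Fahd1, which is named after Fah but is not a step of this pathway, was 0.820-fold of NTG in TGH (adjusted p = 0.0545). The genes of the earlier steps, Tat, Hpd and Hgd, were near 0 in these ventricles.

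Mgst1 (chromosome 6, 138140316 to 138156755) encodes the microsomal transferase of the endoplasmic reticulum and outer mitochondrial membrane, which also reduces lipid hydroperoxides. It stood at 52.3, 32.7 and 64.2 CPM in TGH, 26.8, 33.3 and 16.6 CPM in TGL, against 49.0, 49.9, 33.4 and 38.2 CPM in NTG. The TGL libraries were low, TGH 1 lay within the range of TGL, and the remaining TGH libraries lay above every TGL and NTG library. The means were 49.7 ± 15.9 CPM in TGH and 25.5 ± 8.44 CPM in TGL (SD, n = 3 each), against 42.6 ± 8.12 CPM in NTG (SD, n = 4). In TGH against TGL, where 5.53% of all tested genes were higher and 4.11% lower, 1 of the 9 transferases was higher (Mgst1) and 1 lower (Gstk1). Mgst1 was 1.94-fold of TGL in TGH (log2 0.95 ± 0.27, 95% interval 0.36 to 1.55, adjusted p = 0.049). This call lay at the threshold and ended when any of 7 of the 10 libraries was left out: NTG 0 (adjusted p = 0.0647), NTG 1 (0.062), NTG 3 (0.062), TGL 0 (0.105), TGL 2 (0.134), TGH 0 (0.101) or TGH 2 (0.156). Against NTG neither line passed, with a log2 fold change of 0.22 ± 0.25 in TGH (adjusted p = 0.525) and -0.74 ± 0.26 in TGL (interval -1.31 to -0.17, adjusted p = 0.122).

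Some cell type markers differed between the lines as well. In TGH against TGL, 4 of 8 cardiomyocyte markers, 2 of 6 endothelial markers and 1 of 6 smooth muscle and pericyte markers were lower and 0 of each were higher. Of the fibroblast markers 1 of 8 was higher and of the macrophage markers 1 of 6, with 0 lower in both lists. Their part in the Mgst1 difference was not tested.

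Mgst3 (chromosome 1, 167371966 to 167393841) encodes another membrane enzyme with peroxidase activity toward lipid hydroperoxides. It stood at 212, 218 and 218 CPM in TGH, 201, 230 and 238 CPM in TGL, against 225, 202, 227 and 212 CPM in NTG. The groups overlapped throughout, and the libraries stayed within a narrow band. In TGH against NTG the 95% interval of the log2 fold change was -0.16 to 0.16 (adjusted p = 0.993), the narrowest among the 9 genes in that comparison. Mgst2 (chromosome 3, 51660360 to 51682677), which in human can make leukotriene C4, had 1, 1 and 0 counts in TGH, 0 in each TGL library, and 0, 0, 1 and 0 counts in NTG. It was not tested and gets no fold, since all groups were under the limit that a count of 0 allows.

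**Figure D2:**
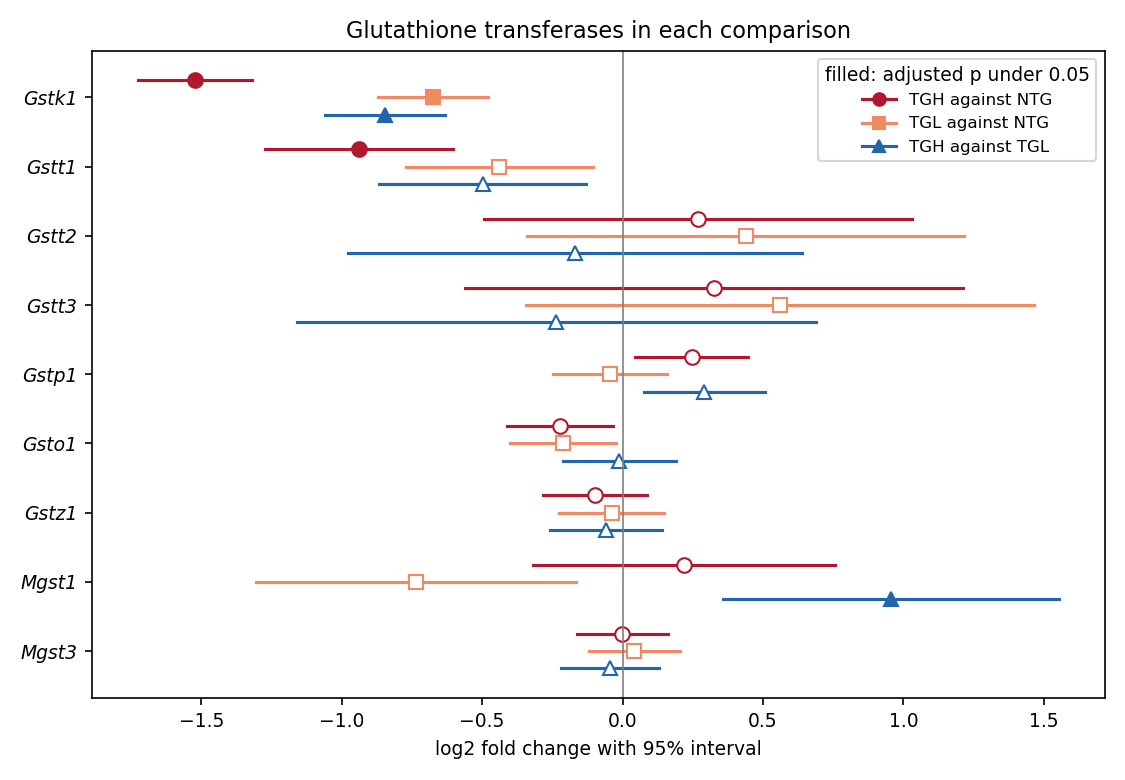
Log2 fold change of the 9 tested transferases with its 95% interval in TGH against NTG (circles), TGL against NTG (squares) and TGH against TGL (triangles), filled where the adjusted p was under 0.05. Gstk1 is filled in all 3 comparisons, Gstt1 in TGH against NTG and Mgst1 in TGH against TGL, and the intervals of the low genes Gstt2 and Gstt3 are wide.

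With both lines joined, the comparison for which the authors deposited fold changes, Gstk1 averaged 38.8 CPM in TG and 79.7 CPM in NTG and Gstt1 8.97 CPM in TG and 14.3 CPM in NTG. The log2 fold change was -1.04 ± 0.20 for Gstk1 (adjusted p = 0.0067) and -0.68 ± 0.17 for Gstt1 (adjusted p = 0.0188). These 2 of 9 genes fell and 0 rose, where 8.03% of all 14265 tested genes fell and 9.34% rose, and for the same 2 no TG library overlapped an NTG library, as for 14.1% of all tested genes. At an unadjusted p under 0.05, 0 were higher and 3 lower, where 4969 of all 14265 tested genes had such a p in either direction. DESeq2 also called 0 of the 9 higher and 2 lower after adjustment. Leaving out NTG 0 or NTG 2 ended the call of Gstt1 (adjusted p = 0.0551 and 0.0503). Gsto1 had -0.22 ± 0.07 (adjusted p = 0.0642), which passed without TGH 0 (adjusted p = 0.0411). In the 9 of 10 fits that left out another library it did not pass (adjusted p up to 0.151). In the authors' deposited table, Gstk1 had a log2 fold change of -1.04 with an adjusted p of 4.82e-05, Gstt1 of -0.68 with 0.00331, and Gsto1 of -0.21 with 0.0546.

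Per kilobase of principal transcript, the scale on which genes can be set beside each other, Mgst3 was the most abundant of the transferases, at 197 CPM per kb in TGH, 203 in TGL and 197 in NTG, and Gsto1 was next at 129 in TGH, 131 in TGL and 151 in NTG. In NTG, Gstk1 followed at 85.7 CPM per kb and Gstp1 at 75.7, then Mgst1 at 36.5 and Gstz1 at 30.5, Gstt1 at 13.8, Gstt2 at 1.64 and Gstt3 at 0.858. The library ranges of Mgst1 and Gstz1 overlapped in NTG, as did those of Gstt2 and Gstt3, so neither pair has a settled order. The NTG libraries of Gstk1 reached down to 80.5 CPM per kb and those of Gstp1 up to 80.3. Gstp1 also shares words with Gstp2, so the order of Gstk1 and Gstp1 in NTG is uncertain too. In TGH the order in the middle was another: Gstk1, at 29.8 CPM per kb, stood after both Gstp1 and Mgst1 and overlapped Mgst1 and Gstz1. Of the summed level of the 10 genes, Gstk1 made up 5.65 ± 0.214% in TGH, 10.2 ± 1.31% in TGL (SD, n = 3 each) and 14.4 ± 0.744% in NTG (SD, n = 4). The sum itself was 528 ± 16.2 CPM per kb in TGH and 525.96 ± 18.6 in TGL (SD, n = 3 each), against 593 ± 13.1 in NTG (SD, n = 4).

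**Figure D3:**
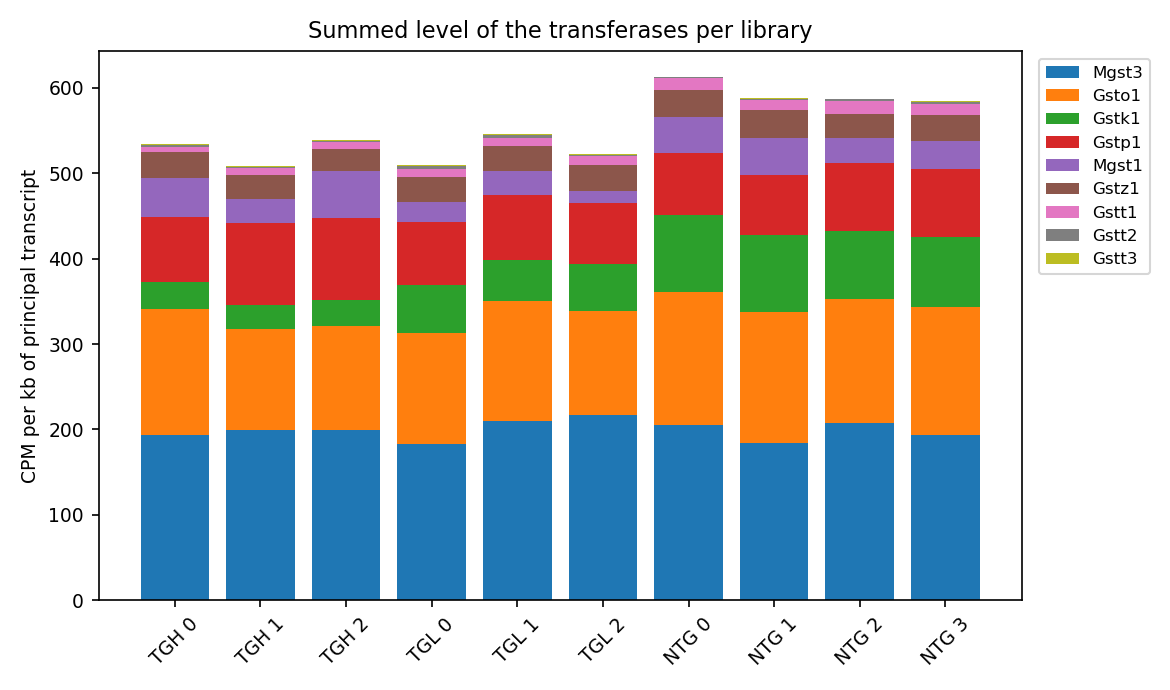
Summed level of the transferases in each library in CPM per kb of principal transcript, stacked by gene, with Mgst2 too low to draw. The Gstk1 segment is thinnest in the TGH libraries, at 5.65% of the sum on average, and thickest in NTG, at 14.4%, while Mgst3 forms the largest segment in each library.

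The alpha and mu classes, which include known Nrf2 targets, give the scale for these values. All 4 alpha class genes measured rose in TGH against NTG (median log2 fold change 5.80) and 3 of them in TGL (median 3.92). Of 7 mu class genes, 4 rose and 1 fell in TGH (median 1.42), with the same counts in TGL (median 0.74). Gsta1 was 160-fold of NTG in TGH and Gsta3 21.1-fold, Gstm2 5.83-fold (adjusted p = 1.73e-07) and Gstm1 3.23-fold (adjusted p = 7.47e-07), while Gstm7, the mu gene that fell, was 0.685-fold (adjusted p = 0.000271). Gsta1 and Gsta2 are near-identical copies, so the division of reads between them is uncertain. In CPM per kb, the alpha class summed to 1654 ± 230 in TGH and 540 ± 88.7 in TGL (SD, n = 3 each), against 70.9 ± 9.37 in NTG (SD, n = 4), and the mu class to 993 ± 128 in TGH and 554 ± 81.7 in TGL, against 328 ± 12.8 in NTG. The 10 genes described here made up 16.8 ± 2.07% of all these transferase transcripts in TGH, 32.7 ± 3.63% in TGL and 59.8 ± 0.597% in NTG. These lists are described by their counts, and the difference between classes was not tested.

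**Figure D4:**
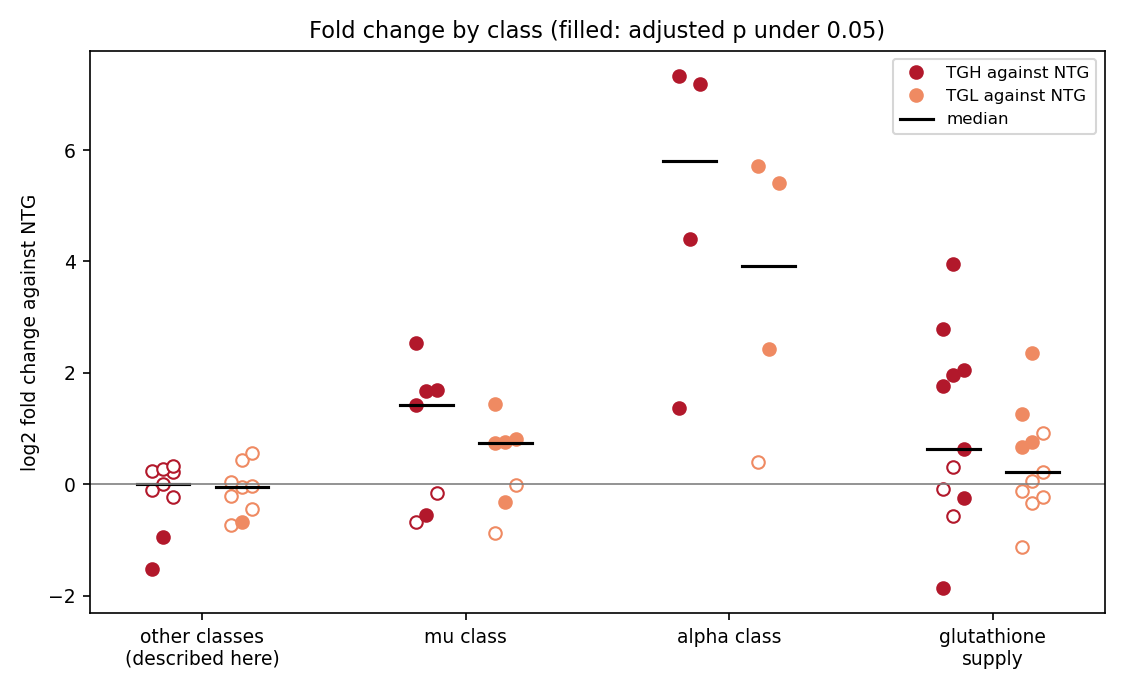
Log2 fold change against NTG of each tested gene of the classes described here, the mu class, the alpha class and glutathione supply, in TGH (left of each pair) and TGL (right), filled where the adjusted p was under 0.05, with bars at the median. The medians of the classes described here lie at -0.0012 in TGH and -0.05 in TGL, those of the alpha class at 5.80 in TGH and 3.92 in TGL.

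Among relatives of these enzymes, 1 of 6 tested genes rose in TGH, as in TGL, and 0 fell. This was Hpgds, the prostaglandin D synthase of the sigma class, at 6.57-fold of NTG in TGH (adjusted p = 0.000675) and 4.22-fold in TGL (adjusted p = 0.024). The leukotriene C4 synthase gene Ltc4s had 2.07-fold (adjusted p = 0.057) and Gsto2, the second omega gene, 2.22-fold (adjusted p = 0.0718), both in TGH against NTG. Of 11 tested genes listed with glutathione supply, 6 rose and 2 fell in TGH, and 4 rose and 0 fell in TGL. This list also holds genes of glutathione breakdown, such as Chac1. Of all tested genes, 16.0% rose and 16.4% fell in TGH, and 4.15% rose and 2.14% fell in TGL. Gclm, the modifier subunit of glutamate-cysteine ligase, was 15.5-fold of NTG in TGH (adjusted p = 8.83e-09), Ggt5, a gamma-glutamyl transferase, 6.90-fold (2.95e-08), Gss, glutathione synthetase, 3.40-fold (6.71e-07) and Gsr, glutathione reductase, 3.87-fold (1.53e-06). The 2 that fell were Chac1, which degrades glutathione (0.276-fold, adjusted p = 0.0214), and Oplah, which recycles 5-oxoproline (0.839-fold, adjusted p = 0.0314).

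The genes that carry glutathione conjugates onward were mixed, and Ggt5 belongs to this list too. Of 12 tested genes of conjugate export and the mercapturate pathway, 3 rose and 4 fell in TGH against NTG, and 1 rose and 1 fell in TGL. Those that fell in TGH included the aminoacylases Acy3 (0.512-fold, adjusted p = 8.37e-05) and Acy1 (0.552-fold, adjusted p = 0.00229) and the dipeptidase Dpep1 (0.587-fold, adjusted p = 0.000561). The export pump Abcc1 was 1.54-fold of NTG in TGH (adjusted p = 0.00347). Markers of heart cells differed between the same groups, as given above, and their part in these list counts was not tested.

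The genes whose pattern over the 10 libraries was most like that of Gstk1 or Gstt1 were found by the root mean square difference of log2 CPM after each gene was centred on its own mean, among 11954 genes. For Gstk1 these were Ablim1, an actin-binding LIM protein (0.136), Fndc5, the precursor of irisin (0.154), and Palmd, palmdelphin (0.163). Ablim1 stood at 313 ± 30.0 CPM in TGH and 544 ± 29.3 CPM in TGL (SD, n = 3 each), against 788 ± 79.0 CPM in NTG (SD, n = 4). For Gstt1 they were Fzd8, a Wnt receptor (0.111), Fitm1, a protein of lipid droplet formation (0.126), and H2afy, a histone variant (0.138). Fitm1 stood at 35.3 ± 3.05 CPM in TGH and 56.5 ± 3.64 CPM in TGL (SD, n = 3 each), against 73.2 ± 8.92 CPM in NTG (SD, n = 4). Likeness was chosen from these values and is a description only.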

How the data were processed

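RNA of 10 left ventricle samples (3 TGH, 3 TGL, 4 NTG, grouped by label) had been extracted with Trizol. It was made into TruSeq libraries, a kit that does not mark strand by its standard form. Per the submitters' processing notes, bcl2fastq 1.8.4, Trim Galore 0.4.0, Novoalign, SAMtools, DESeq2 1.18.1 and mm10 (GRCm38) were used. No counter, annotation or strand setting is given in the sources used here. The table deposited by the authors holds a whole-number count per gene and library. For TG against NTG it also holds, per the file headers, a signal named baseMean (normalized counts averaged over libraries), a log2 fold change and its SE, the Wald score, and raw and adjusted p-value columns.

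The counts of all libraries were tested with edgeR 4.0.16 in R 4.3.3: filterByExpr, TMM, quasi-likelihood F test, Benjamini-Hochberg over all tested genes, threshold 0.05. A fit with 2 groups gave TG against NTG, and 1 fit with 3 groups gave all others. The SE is the size of the log2 fold change divided by the square root of the F statistic, and intervals use the t distribution of the fit. The 1324 genes without a symbol held 0.777% of counts and stayed in the fits. Lengths, overlaps and shared 50-base words came from GENCODE M21, promoters from RefSeq. The code was tested on simulated data.

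The genes and lists were chosen with earlier results of these data known, and TGANTCAGC after the windows were read. All 10 transferases are named, up to 4 genes a list by smallest adjusted p in TGH against NTG, and the 3 genes most like a called transferase by root mean square difference, with a mean of at least 1 CPM. Neighbours, overlapping genes and the few genes behind a small count outside this rule (Gstm7, Chac1, Oplah, Abcc1) were named after their values were seen. Alternatives were DESeq2 1.42.0, scaling by RLE, a fit of all genes with a count, a filter of 1 CPM in 4 or more libraries, blocking by replicate number, other groups in the fit and each library left out. Leaving out NTG 2 with TGL 2, and Gstp1 with Gstp2 as 1 gene, were added after seeing the data. The labels do not say whether replicate numbers pair the libraries, and the correlations of same-numbered libraries, given below, do not settle it.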

Additional observations from a re-analysis of the deposited data

Results flagged for a closer look

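The effects of the 2 lines on Gstk1 differed by a direct test. Its log2 fold change was -0.85 in TGH against TGL (edgeR adjusted p = 0.000305), and it was lower in 3 of 3 TGH libraries than in every TGL library.

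The effects of the 2 lines on Mgst1 differed as well, in the other direction, with a log2 fold change of 0.95 in TGH against TGL (edgeR adjusted p = 0.049). Here TGH 1, at 32.7 CPM, lay below TGL 1, at 33.3 CPM, and the call ended without any of 7 of the 10 libraries. No NTG library stood out from its group for any of the 9 genes by Dixon's ratio. The groups of 3 were not checked.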

How the results depend on the processing

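Gstk1 fell in each comparison under all 18 alternatives (adjusted p up to 0.0362 in TG against NTG), and so did Gstt1 in TGH against NTG (adjusted p 1.44e-05 to 0.00292). Of the results without 1 library, 333 kept direction and call, 9 lost and 4 gained a call and 14 changed sign. With the other alternatives these were 274, 4, 1 and 9. Every change of sign was of an uncalled value, and the causes were not tested.

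The genes called in TG against NTG numbered 2, and 1 to 3 without 1 library. In TGL against NTG they numbered 1 throughout. In TGH against NTG they numbered 2, and 2 to 4 without 1 library, with 4 without TGH 0. In TGH against TGL they numbered 2, and 1 to 2 without 1 library. There they numbered 1, Gstk1, with only those groups fitted, and Mgst1 lost its call (adjusted p = 0.0829). They also numbered 1, Gstk1, without NTG 2 and TGL 2, chosen after seeing the data, and Mgst1 lost its call (adjusted p = 0.0931). With 3 groups fitted, Gsto1 passed in TG against NTG (adjusted p = 0.0455). With the replicate number as a block, 1 gene was called in TG against NTG, Gstk1, and Gstt1 lost its call (adjusted p = 0.0567). With that block 1 gene was called in TGH against TGL, Gstk1, and Mgst1 lost its call (adjusted p = 0.0768). The other calls held. Same-numbered libraries deviated together, with a correlation over 0.1, in 2 of 9 pairs, and 3 of 10 libraries correlated best with their own number.

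Mgst3 changed sign in TGH against NTG, to 0.0074 with DESeq2, 0.0073 with RLE factors, 0.0041 without a filter, 0.00051 with at least 1 CPM, 0.014 with only those groups and 0.021 without NTG 2 and TGL 2, and in TGH against TGL to 0.0054 without them. Gstp1 in TGL against NTG ran from -0.078 without 1 library to 0.0033 without NTG 2 and TGL 2, and stood at 0.074 when counted with Gstp2. Without 1 library, Mgst3 ran from -0.011 to 0.053 in TG, -0.0080 to 0.12 in TGL and -0.033 to 0.023 in TGH against NTG, and from -0.12 to 0.0054 in TGH against TGL. Mgst1 ran from -0.0076 to 0.45 in TGH against NTG. In TGH against TGL, Gstt2 ran from -0.49 to 0.13, Gstt3 from -0.62 to 0.16 and Gsto1 from -0.12 to 0.048. Groups of 3 and 4 libraries limit the precision, and Gstt3, with 6 to 26 counts a library, had the widest interval in TGH against NTG.

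DESeq2 called 4400 genes in TGH against NTG, where edgeR called 4700. In TG against NTG edgeR called 1338 genes with the block and 2477 without it.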
